A study of Mus musculus with 16 samples.

Results

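The MHC class I antigen presentation pathway was described through 10 genes, H2-K1, H2-D1, B2m, Tap1, Tap2, Tapbp, Psmb8, Psmb9, Psme1 and Nlrc5. They were taken by gene symbol from a table of read counts for 55335 gene identifiers, and all 10 were found and passed the filter on low counts. The counts came from poly-A RNA sequencing of splenic CD8 T cells of mice, kept in medium with the cytokine IL-15 (50 ng/ml) on plate-bound antibodies to CD3e (clone 2C11) and CD28 (clone 37.51), at 1 µg/ml each. The 4 groups were Batf3-/- (ko) cells at 72 h, wild-type C57BL/6 (wt) cells at 72 h, ko cells at 48 h and wt cells at 48 h, with 4 libraries each. All groups received the same antibodies and cytokine, so no group was left unstimulated. The ko is labelled as a deletion carried by the mouse and not as one limited to T cells, and the number of mice is not given in the sources used here. Replicates within a group are described by the submitters as technical, and p-values here therefore reflect library-to-library spread, which may not include the spread between animals.

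The class I pathway shows fragments of a cell's own proteins on its surface, where CD8 T cells read them. The proteasome cuts proteins into peptides, and in lymphocytes and under interferon gamma its catalytic subunits are exchanged for those of the immunoproteasome. TAP carries the peptides into the endoplasmic reticulum, tapasin holds TAP next to an empty class I molecule, and a heavy chain with beta-2-microglobulin leaves for the surface once it has bound a peptide. CD8 T cells present antigen by the same route as other nucleated cells, and NLRC5, which works with the RFX, CREB and NF-Y factors at class I promoters, is the main transactivator of these genes in T cells.

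Of the 10 genes 7 lie on chromosome 17, most of them in the MHC region. In GRCm38 these are Tapbp (33915899 to 33929292), H2-K1 (33996017 to 34000347), Psmb9 (34181987 to 34187764), Tap1 (34187553 to 34197225), Psmb8 (34197721 to 34201454), Tap2 (34203527 to 34216321) and H2-D1 (35262730 to 35267499). H2-K1 and Psmb9 are on the minus strand and the other 5 on the plus strand. B2m lies on chromosome 2 (122147686 to 122153083), Nlrc5 on chromosome 8 (94434356 to 94527272) and Psme1 on chromosome 14 (55578123 to 55581529), all on the plus strand. Tap1 and Psmb9 overlap by 212 bases on opposite strands, and how the counting treated strand is not given, so a part of their reads is uncertain. H2-K1 and H2-D1 are near-identical in much of their coding sequence to each other and to other class I heavy chains, and their counts are uncertain for that reason.

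The 250 bases before the start of each gene in RefSeq (GRCm38.p6) were found for 8 of the 10 genes, and 6 are shown because the results turn on these genes: the heavy chain pair, the light chain and transporter that changed most with time, and the proteasome and tapasin genes that differed between genotypes. Each is written 5′ to 3′ on the gene's own strand, and capitals mark matches to the 6 searched motifs on either strand. Within these windows no match overlaps another. The RefSeq start is not always the first base of the gene span given above. The windows of H2-D1, Psmb8 and Tapbp lie inside those spans, as do those of Psme1 and Psmb9, which are not printed. H2-K1 is at chr17:34000348-34000597 (minus strand), H2-D1 at chr17:35262844-35263093 (plus), B2m at chr2:122147437-122147686 (plus), Tap1 at chr17:34187306-34187555 (plus), Psmb8 at chr17:34197945-34198194 (plus) and Tapbp at chr17:33919228-33919477 (plus).
H2-K1: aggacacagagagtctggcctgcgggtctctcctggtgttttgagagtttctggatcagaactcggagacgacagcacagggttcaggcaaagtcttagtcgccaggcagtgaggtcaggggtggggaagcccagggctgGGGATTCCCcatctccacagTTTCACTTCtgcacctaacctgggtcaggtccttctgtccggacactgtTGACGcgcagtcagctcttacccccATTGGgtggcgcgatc
H2-D1: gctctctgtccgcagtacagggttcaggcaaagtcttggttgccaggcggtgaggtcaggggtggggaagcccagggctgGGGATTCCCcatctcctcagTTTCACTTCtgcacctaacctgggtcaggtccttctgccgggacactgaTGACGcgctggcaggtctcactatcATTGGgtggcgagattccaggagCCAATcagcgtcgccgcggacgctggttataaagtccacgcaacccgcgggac
B2m: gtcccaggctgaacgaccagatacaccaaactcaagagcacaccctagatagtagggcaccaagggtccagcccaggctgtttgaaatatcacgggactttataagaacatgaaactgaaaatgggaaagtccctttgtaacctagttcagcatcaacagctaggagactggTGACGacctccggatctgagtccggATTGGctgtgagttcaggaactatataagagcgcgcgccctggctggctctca
Tap1: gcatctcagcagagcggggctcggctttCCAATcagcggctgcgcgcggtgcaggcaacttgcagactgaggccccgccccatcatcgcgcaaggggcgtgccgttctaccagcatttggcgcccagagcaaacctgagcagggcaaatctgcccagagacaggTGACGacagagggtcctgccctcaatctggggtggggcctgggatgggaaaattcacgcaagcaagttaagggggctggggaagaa
Psmb8: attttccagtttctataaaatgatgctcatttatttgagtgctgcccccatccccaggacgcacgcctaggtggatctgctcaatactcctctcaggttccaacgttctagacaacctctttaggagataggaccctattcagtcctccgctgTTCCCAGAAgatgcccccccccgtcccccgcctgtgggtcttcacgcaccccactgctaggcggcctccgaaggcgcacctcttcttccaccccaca
Tapbp: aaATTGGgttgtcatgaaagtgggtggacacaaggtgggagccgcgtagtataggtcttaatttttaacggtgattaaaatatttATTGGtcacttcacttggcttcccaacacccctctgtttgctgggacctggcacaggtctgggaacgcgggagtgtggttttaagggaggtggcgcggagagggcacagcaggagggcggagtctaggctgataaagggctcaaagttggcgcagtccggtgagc

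The H2-K1 and H2-D1 windows are close copies, with 166 of 190 aligned bases identical (87.4%, no gaps), and they carry the motifs in the same order. Both hold GGGANTCCC, a kappa-B core, which 0.636% of 32851 promoter windows of this length hold, and GAANNGAAA, an interferon regulatory factor motif, held by 6.31% of all windows. Only these letters were searched for, so a longer spelling of that motif, GAAACTGAAA in the B2m window, is not marked or counted. TGACG, the core of the cyclic AMP response element, was found in 5 of the 8 windows (B2m, H2-K1, Psmb9, Tap1 and H2-D1) against 17.8% of all. CCAAT, the NF-Y box, was found in 6 (the same 5 and Tapbp) against 33.9%. TTCNNNGAA, the gamma-activated motif, was found in Psmb8 alone among the 8, against 7.02% of all windows, and TGANTCA, the AP-1 motif, in 0 of the 8 against 6.75%. The Tap1 and Psmb9 windows share 225 bases, since both genes are read outward from one stretch, so the matches of that pair are not independent. These matches describe the letters in the windows and do not show binding.

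Libraries held 29375818 to 39241169 counts, and Batf3 was read 0 to 11 times in ko libraries and 844 to 3441 times in wt libraries, so all 16 matched their genotype label. Summed CD8 T cell markers (7 genes) stood at 2419 to 2527 CPM (counts per 1000000 counts of the library) in ko and 2224 to 2248 CPM in wt cells at 72 h, and at 1768 to 1855 CPM in ko and 1703 to 1746 CPM in wt cells at 48 h. The 5 NK cell markers summed to 28.8 to 31.9 CPM in ko against 15.97 to 20.25 CPM in wt cells at 72 h, and to 13.9 to 17.2 CPM in ko against 7.65 to 8.41 CPM in wt cells at 48 h. The NK sums of the genotypes did not overlap at either time. With ko set over wt, 3 of the 5 NK markers passed as higher and 0 as lower at each time (edgeR). The median log2 fold change of the 5 was 0.79 at 72 h and 0.86 at 48 h. The NK marker Ncr1, which defines NK cells, reached at most 0.591 CPM. Of the 7 CD8 T cell markers, 3 passed as higher at 72 h and 2 at 48 h, and 0 as lower (edgeR, ko over wt). The 9 macrophage, monocyte and granulocyte markers summed to 8.18 to 11.995 CPM in ko against 5.86 to 7.22 CPM in wt cells at 72 h, which did not overlap, and to 1.14 to 2.49 CPM in ko and 1.497 to 2.17 CPM in wt cells at 48 h. Of these the lysosomal Cd68, the 1 marker of the list that passed the filter on low counts, was higher in ko cells at 72 h (log2 fold change 0.70, SE 0.18, edgeR adjusted p = 0.00319), while Csf1r and Adgre1 were at 0 to 1 count in every library. The 7 dendritic cell markers summed to 4.01 to 5.50 CPM in ko and 5.18 to 5.99 CPM in wt cells at 72 h, with Clec9a at 0 in every library, Zbtb46 at 94 to 146 counts and Xcr1 at 2 to 30 counts. The 3 CD4 T cell markers summed to 45.6 to 60.6 CPM in ko and 48.2 to 55.2 CPM in wt cells at 72 h. At 48 h these 3 summed to 22.1 to 28.8 CPM in ko and 18.4 to 22.4 CPM in wt cells, which overlapped. Of the 2 that passed the filter, 1 was higher in ko cells at 48 h and 0 at 72 h (edgeR). Cd4 itself reached at most 0.896 CPM. The part of cells that carry NK, macrophage or CD4 T cell markers in the results below was not tested. Replicate 4 of ko at 48 h and replicate 4 of wt at 72 h stood apart from their groups, with a root mean square log2 distance of 0.234 and 0.218 from the other replicates, against 0.109 to 0.163 for the other libraries. The results were also computed without them.

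Per kilobase of exon (RPKM, CPM divided by the exon length in units of 1000 bases), the light chain and the heavy chains were the most abundant of the 10 transcripts and Nlrc5 the least. B2m had 1598 ± 35.9 RPKM in ko and 1646 ± 61.5 RPKM in wt cells at 72 h, and 1055 ± 65.3 RPKM in ko and 1123 ± 40.8 RPKM in wt cells at 48 h (SD, n = 4 each). H2-D1 came next at 506 ± 18.6 RPKM in ko and 522 ± 20.998 RPKM in wt cells at 72 h. H2-K1 followed at 393 ± 19.0 RPKM in ko and 459 ± 17.4 RPKM in wt cells at that time. After these, in all 4 groups, came Psme1, Psmb8, the pair of Tap1 and Psmb9, Tapbp, Tap2 and Nlrc5. Nlrc5 had 8.43 ± 0.555 RPKM in ko and 12.5 ± 1.20 RPKM in wt cells at 72 h. Neighbours in this order did not overlap between libraries of a group, with 2 exceptions at 48 h. Tap1 and Psmb9 overlapped in both genotypes, and Tapbp and Tap2 overlapped in ko cells. At 72 h Tap1 stood above Psmb9 in both genotypes. The order rests on the length of all joined exons, such as 860 bases for B2m, 3660 for Psmb9 and 5476 for Tap1. The transcripts present may be shorter than that, an uncertainty that the spread between libraries does not include. Together the 10 genes took 0.501% ± 0.0135 of all counts in ko and 0.549% ± 0.0191 in wt cells at 72 h, and 0.451% ± 0.0134 in ko and 0.461% ± 0.00633 in wt cells at 48 h (SD, n = 4 each).

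**Figure D1:**
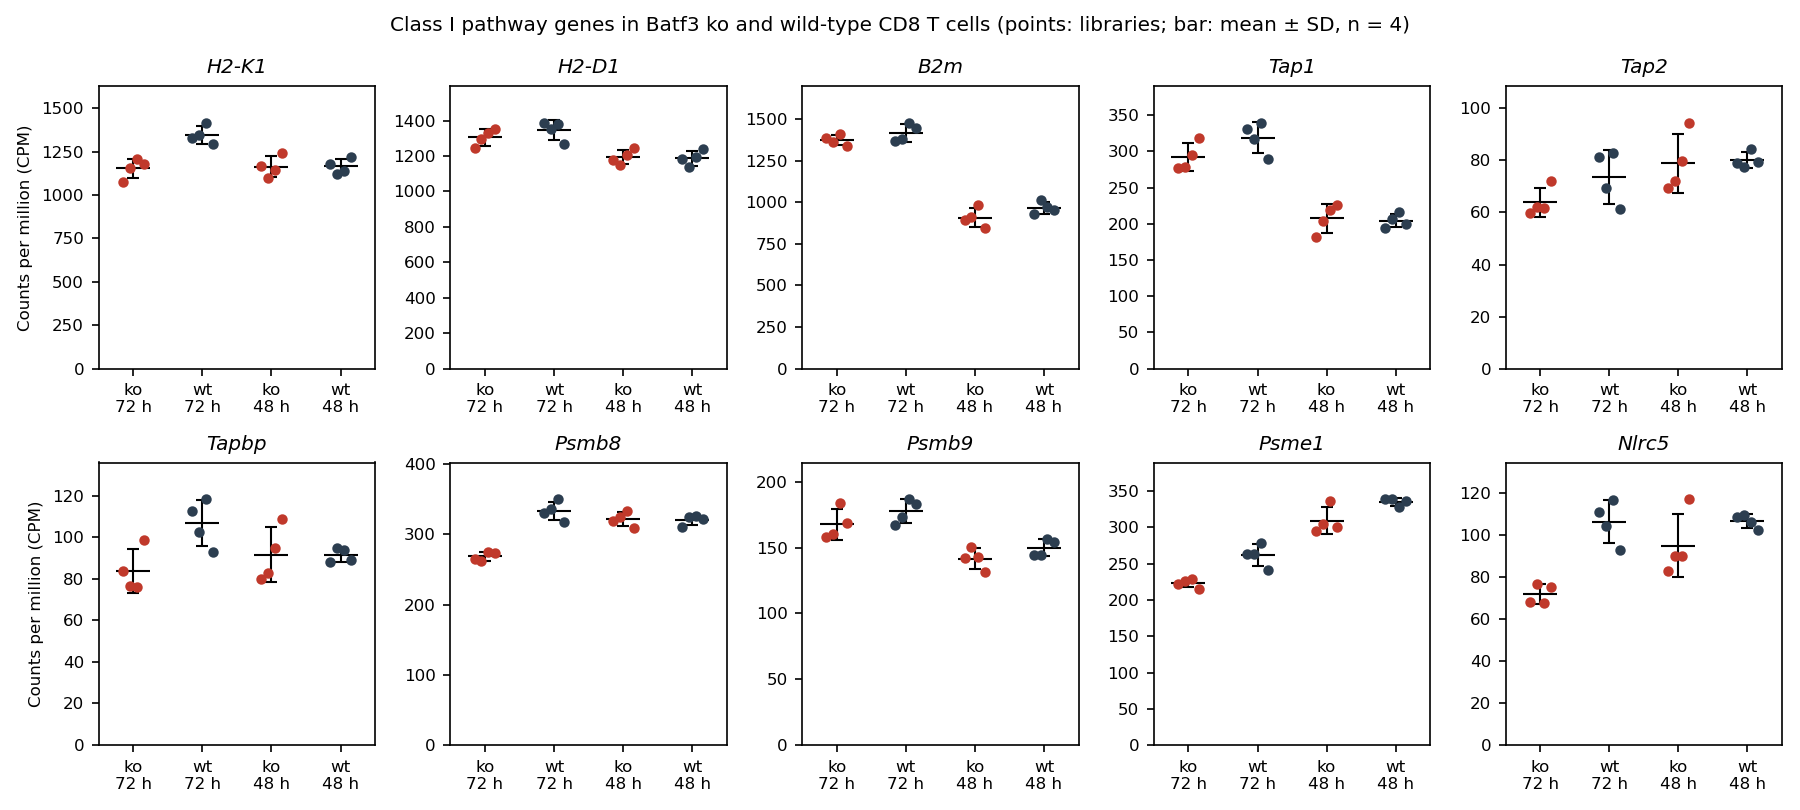
CPM of the 10 genes in each library (points; 4 per group), with the mean and SD as bars; each panel has its own vertical axis starting at 0, and the groups run from ko and wt at 72 h to ko and wt at 48 h. At 72 h the ko points of Nlrc5, Psmb8, Psme1 and H2-K1 all lie below the wt points, while at 48 h the points overlap in all 10 panels.

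At 72 h, cells without Batf3 held less mRNA of the transactivator Nlrc5 and of the immunoproteasome subunit Psmb8. Tapasin was lower too, with overlapping libraries and a call near the threshold that did not hold in every alternative. The heavy chains, the light chain and the transporter did not pass the test. Loss of Batf3 went with 3 lower and 0 higher genes among the 10 (edgeR quasi-likelihood test, adjusted p below 0.05 over 15197 genes). Among all genes tested 36.4% passed, 19.5% as lower and 16.9% as higher, so 3 of 10 is near the background. The median log2 fold change of the 10 genes was -0.09, against -0.02 for all genes tested. These fold changes were scaled by TMM, which sets most genes at no change, whereas CPM divides by the library total. Library-total scaling moved the median of all genes to -0.14, and with it 23.4% of the calls over all genes were higher, against 46.4% in the TMM fit. In bulk RNA, fewer cells of a type and less RNA per cell cannot be told apart.

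Nlrc5 had the largest difference of the 10. At 72 h it had 67.8, 76.3, 67.3 and 75.0 CPM in the ko libraries, against 111, 104, 117 and 92.8 CPM in the wt libraries. All 4 ko libraries were below all 4 wt libraries. The log2 difference was -0.44 (SE 0.08, 95% interval -0.59 to -0.28, adjusted p = 8.16e-05, edgeR quasi-likelihood test), and it passed in all 26 alternative settings run, with values from -0.57 to -0.32. At 48 h it had 82.5, 89.8, 90.0 and 117 CPM in the ko libraries, against 108, 109, 106 and 102 CPM in the wt libraries. There 3 ko libraries lay below all wt libraries and replicate 4 lay above them, and the log2 fold change was -0.14 (SE 0.07, 95% interval -0.29 to 0.02, adjusted p = 0.290, edgeR). Without ko replicate 4 of 48 h it was -0.23 and passed (edgeR adjusted p = 0.0186), as it did with both outlying libraries dropped (adjusted p = 0.00565). The change of the genotype effect between the times was -0.30 (SE 0.11, adjusted p = 0.0972, edgeR). Library-total scaling took it past the threshold (edgeR adjusted p = 0.0408), and so did dropping ko 48 h replicate 1 (adjusted p = 0.0472) or wt 72 h replicate 4 (adjusted p = 0.0404).

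Of the proteasome genes, Psmb8, which encodes the immunoproteasome subunit that replaces PSMB5, was lower in ko cells at 72 h. It had 265, 262, 274 and 274 CPM in the ko libraries, against 329.8, 336, 349.9 and 318 CPM in the wt libraries. The groups did not overlap, and the ko values lay within a narrow range. The log2 fold change was -0.18 (SE 0.05, 95% interval -0.29 to -0.08, adjusted p = 0.00784, edgeR quasi-likelihood test), and the call stood in every alternative run. At 48 h Psmb8 had 309 to 333 CPM in ko and 311 to 326 CPM in wt libraries, which overlapped, and its log2 fold change was 0.04 (95% interval -0.07 to 0.15, edgeR adjusted p = 0.710). Between 72 h and 48 h the genotype effect changed by -0.22 (SE 0.07), which missed the threshold in the edgeR fit (adjusted p = 0.0753). It passed in DESeq2 (adjusted p = 0.0353), with library-total scaling (edgeR adjusted p = 0.00642), with ko 48 h replicate 4 dropped (adjusted p = 0.0269) and with both outlying libraries dropped (adjusted p = 0.0163).

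Psmb9, the immunoproteasome subunit that replaces PSMB6, had 158, 161, 184 and 169 CPM in ko and 167, 173, 187 and 184 CPM in wt libraries at 72 h. The groups overlapped, with a log2 fold change of 0.05 (95% interval -0.09 to 0.18, edgeR adjusted p = 0.635). Psme1, which encodes a subunit of the PA28 cap that opens the proteasome, had 222, 227, 229 and 215 CPM in ko against 264, 264, 278 and 241.5 CPM in wt libraries. On the CPM scale all ko libraries lay below all wt libraries, while on the TMM scale the ranges were 226 to 243 in ko and 239 to 260 in wt cells and overlapped. The log2 fold change was -0.10 (95% interval -0.21 to 0.01, edgeR adjusted p = 0.153). Psme1 passed with library-total scaling (-0.23, adjusted p = 0.00186) and with offsets for exon length (-0.16, adjusted p = 0.0246). At 48 h Psmb9 stood at -0.05 (95% interval -0.18 to 0.09) and Psme1 at -0.08 (95% interval -0.19 to 0.03), neither past the threshold (edgeR adjusted p = 0.752 and 0.403).

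Tapbp, which encodes tapasin, was lower in ko cells at 72 h, with a call near the threshold that held in 18 of the 26 alternatives. It had 83.8, 76.3, 75.9 and 98.6 CPM in the ko libraries, against 113, 102, 118 and 93.1 CPM in the wt libraries. Replicate 4 of ko lay above replicate 4 of wt, so the groups overlapped by that pair. The log2 fold change was -0.22 (SE 0.08, 95% interval -0.39 to -0.05, adjusted p = 0.0421, edgeR quasi-likelihood test). In edgeR it missed the threshold when ko 72 h replicate 1 (adjusted p = 0.0730), 2 (0.142) or 3 (0.153) or wt 72 h replicate 1 (0.103), 2 (0.0558) or 3 (0.130) was dropped. It was also lost with offsets for exon length (adjusted p = 0.0501) and with only the 72 h groups fitted (adjusted p = 0.0641). At 48 h the log2 fold change was 0.03 (95% interval -0.14 to 0.21, edgeR adjusted p = 0.861), and -0.04 without ko 48 h replicate 4.

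Tap1 and Tap2 encode the subunits of the peptide transporter. At 72 h Tap1 had 276, 279, 295 and 318 CPM in ko and 330.4, 316, 339 and 289 CPM in wt libraries. The groups overlapped, and the log2 fold change was 0.00 (95% interval -0.13 to 0.13, edgeR adjusted p = 0.993), with its sign depending on the setting. Tap2 had 59.9, 62.0, 61.6 and 72.0 CPM in ko and 81.3, 69.3, 83.0 and 61.2 CPM in wt libraries, with the lowest wt library within the ko range. Its log2 fold change was -0.08 (95% interval -0.25 to 0.10, edgeR adjusted p = 0.512). At 48 h the log2 fold changes were 0.06 (95% interval -0.07 to 0.19) for Tap1 and 0.01 (95% interval -0.16 to 0.18) for Tap2, and neither passed (edgeR adjusted p = 0.652 and 0.965).

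Neither classical heavy chain nor the light chain passed the test at 72 h. H2-K1, the K heavy chain, had 1077, 1155, 1207 and 1177 CPM in the ko libraries, against 1328, 1348, 1417 and 1296 CPM in the wt libraries. On the CPM scale these groups did not overlap, but the TMM fit gave a log2 fold change of -0.10 (95% interval -0.21 to 0.02, edgeR adjusted p = 0.180), and with library-total scaling it was -0.22 and passed (adjusted p = 0.00202). H2-D1, the D heavy chain, had 1244, 1294, 1329 and 1355 CPM in ko and 1388, 1351, 1381 and 1269.6 CPM in wt libraries, which overlapped. Its log2 fold change was 0.08 (95% interval -0.03 to 0.19, edgeR adjusted p = 0.234), and -0.05 with library-total scaling. B2m, the light chain, had 1386, 1362, 1411 and 1339 CPM in ko and 1367, 1377, 1477 and 1444 CPM in wt libraries. These overlapped too, and the log2 fold change was 0.08 (95% interval -0.04 to 0.21, edgeR adjusted p = 0.286), and -0.04 with library-total scaling.

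At 48 h the libraries of both genotypes overlapped for all 3 chain genes. H2-K1 had 1099 to 1245 CPM in ko and 1122 to 1222 CPM in wt libraries, H2-D1 had 1151 to 1244 CPM in ko and 1136 to 1239 CPM in wt, and B2m had 847 to 982 CPM in ko and 930.3 to 1012 CPM in wt. Their log2 fold changes were 0.03 (95% interval -0.08 to 0.14), 0.04 (-0.06 to 0.15) and -0.05 (-0.18 to 0.07). At that time 0 of the 10 genes passed in the edgeR fit. An unadjusted p under 0.05 was also reached by 0, a threshold at which the share of all genes was not computed. DESeq2 and limma-voom also called 0 of the 10, against 7.07% of all genes tested in either direction in edgeR (4.41% higher and 2.66% lower). The median log2 fold change of the 10 genes was 0.02 at 48 h, against 0.01 for all genes. Over the 10 genes the 95% intervals at 48 h reached from -0.29 to 0.21.

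**Figure D2:**
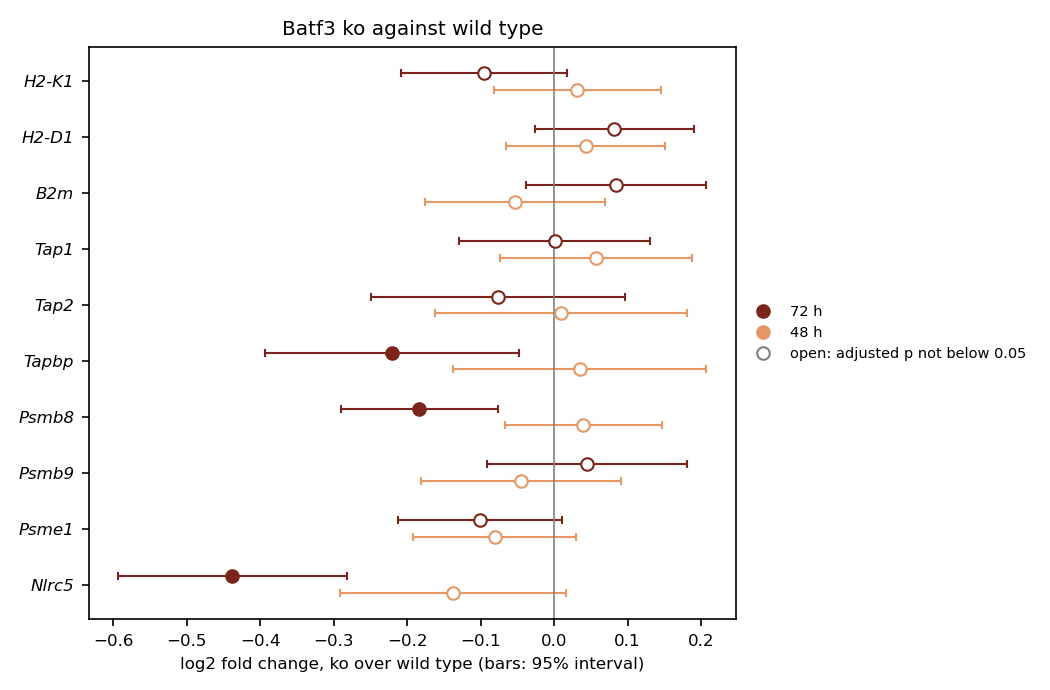
Log2 fold change of each gene, ko over wt, at 72 h (dark) and 48 h (light), with 95% intervals from the edgeR fit; open points did not pass an adjusted p of 0.05. Filled points appear only at 72 h and for Nlrc5 (-0.44), Tapbp (-0.22) and Psmb8 (-0.18).

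Counted by overlap, 4 of the 10 genes (Nlrc5, Psmb8, Psme1 and H2-K1) had every ko library below every wt library at 72 h on the CPM scale, where 26.8% of all genes tested did. None of the 10 lay wholly above, against 8.34% of all. On the TMM scale 2 of the 10 (Nlrc5 and Psmb8) lay wholly below, against 17.2% of all genes. At 48 h 0 of the 10 separated in either direction on the CPM scale, where 8.76% of all genes lay wholly below and 5.69% wholly above.

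Ratios between paired genes within a library do not depend on the scaling. They were taken from RPKM, so their level depends on the exon lengths used, while a comparison of the groups does not. The pairs were an immunoproteasome subunit over the constitutive subunit that it replaces, the subunits of the transporter and the classical heavy chains, 5 pairs at each time and 10 tests in all. They were chosen with values known, and the exact two-sided permutation test with 4 libraries against 4 cannot give a p below 0.0286. The ratio of H2-K1 to H2-D1 at 72 h was 0.760, 0.784, 0.797 and 0.762 in the ko libraries, against 0.840, 0.876, 0.901 and 0.896 in the wt libraries. All ko values were below all wt values, a log2 difference of -0.18 (exact permutation p = 0.0286, adjusted p = 0.0952 over the 10 tests). At 48 h it was 0.856 ± 0.0226 in ko and 0.863 ± 0.0162 in wt cells (SD, n = 4 each; exact permutation p = 0.714).

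Psmb9 stood lower relative to Psmb6, the constitutive subunit in its place, in every ko library than in any wt library at both times. The ratio was 0.459 ± 0.0316 in ko against 0.518 ± 0.0287 in wt cells at 72 h, and 0.268 ± 0.00718 in ko against 0.301 ± 0.00850 in wt cells at 48 h (SD, n = 4 each). The log2 differences were -0.18 and -0.17 (exact permutation p = 0.0286 and adjusted p = 0.0952 each). Psmb9 itself did not pass at either time (0.05 at 72 h and -0.05 at 48 h, edgeR adjusted p = 0.635 and 0.752). Psmb6 was higher in ko cells at 72 h in the edgeR fit, as given below. The ratio of Psmb8 to Psmb5 overlapped between the genotypes, with 0.812 ± 0.0561 in ko and 0.835 ± 0.0269 in wt cells at 72 h, and 0.419 ± 0.0218 in ko and 0.448 ± 0.0383 in wt cells at 48 h (SD, n = 4 each; exact permutation p = 0.514 and 0.229). The ratio of Psmb10 to Psmb7 was 0.751 ± 0.0506 in ko and 0.908 ± 0.149 in wt cells at 72 h (exact permutation p = 0.143, n = 4 each). The ratio of Tap1 to Tap2 was 3.16 ± 0.113 in ko and 3.01 ± 0.233 in wt cells at 72 h, and 1.83 ± 0.135 in ko and 1.76 ± 0.0562 in wt cells at 48 h (SD, n = 4 each; exact permutation p = 0.314 and 0.429). No ratio passed after adjustment over the 10 tests.

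**Figure D3:**
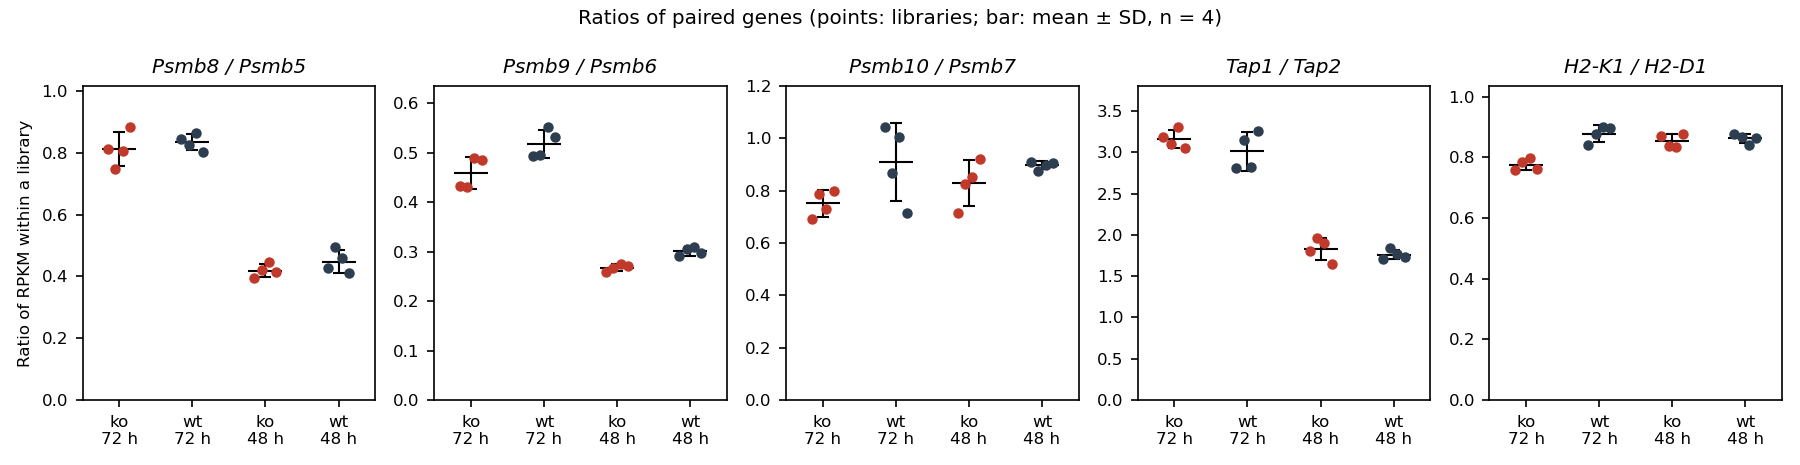
Ratio of the RPKM of paired genes in each library (points), with mean and SD as bars (n = 4); the vertical axes start at 0 and the groups run from ko and wt at 72 h to ko and wt at 48 h. The ko and wt points separate for Psmb9 over Psmb6 at both times and for H2-K1 over H2-D1 at 72 h. The ratios of Psmb8 to Psmb5, of Psmb9 to Psmb6 and of Tap1 to Tap2 are higher at 72 h than at 48 h in both genotypes. From 48 h to 72 h mean Psmb5 went from 204 to 88.2 CPM in ko and from 191 to 106 CPM in wt cells. Mean Psmb8 went from 322 to 269 CPM in ko and from 321 to 333 CPM in wt cells.

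With time in culture some of the 10 genes rose and others fell. In ko cells 4 of the 10 genes were higher and 4 lower at 72 h than at 48 h, and in wt cells 6 were higher and 1 lower (edgeR quasi-likelihood test). Among all genes tested 68.0% passed in ko cells (34.4% higher and 33.6% lower) and 63.6% in wt cells (33.6% higher and 29.9% lower). Counted in either direction, the part of the 10 genes that passed is near these shares in both genotypes. The 2 time comparisons use different libraries. The median log2 fold change of the 10 genes was 0.00 in ko and 0.17 in wt cells, against 0.03 in ko and 0.05 in wt cells for all genes tested.

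Tap1 and B2m had the largest rises. Tap1 had 276 to 318 CPM at 72 h against 181 to 226 CPM at 48 h in ko libraries, and 289 to 339 CPM at 72 h against 195 to 216 CPM at 48 h in wt libraries. The times did not overlap in either genotype, and the log2 change of Tap1 with time was 0.56 (SE 0.06, adjusted p = 2.58e-08) in ko and 0.62 (SE 0.06, adjusted p = 6.68e-09) in wt cells. B2m had 1339 to 1411 CPM at 72 h against 847 to 982 CPM at 48 h in ko libraries, and 1367 to 1477 CPM at 72 h against 930.3 to 1012 CPM at 48 h in wt libraries. The times were again apart, with log2 fold changes of 0.66 (SE 0.06, adjusted p = 4.48e-10, edgeR) in ko and 0.53 (SE 0.06, adjusted p = 3.34e-08, edgeR) in wt cells. Psmb9, which shares its promoter stretch with Tap1, rose by less, 0.31 (SE 0.07) in ko and 0.22 (SE 0.07) in wt cells. H2-D1 rose by 0.19 (SE 0.05) in ko and 0.16 (SE 0.05) in wt cells. H2-K1 stood at 0.05 (95% interval -0.06 to 0.17, adjusted p = 0.401, edgeR) in ko cells and rose by 0.18 (SE 0.05, adjusted p = 0.00589, edgeR) in wt cells, a difference between genotypes of -0.13 that did not pass (adjusted p = 0.370, edgeR). With no filter on low counts the rise of H2-D1 was lost in ko and in wt cells (adjusted p = 0.0630 and 0.174), and so was that of H2-K1 in wt cells (adjusted p = 0.0834).

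Psme1 was lower at 72 h in both genotypes. It had 215 to 229 CPM at 72 h against 295 to 337 CPM at 48 h in ko libraries, and 241.5 to 278 CPM at 72 h against 328 to 339 CPM at 48 h in wt libraries. The log2 fold change was -0.41 (SE 0.05, adjusted p = 3.95e-07) in ko and -0.39 (SE 0.05, adjusted p = 1.02e-06) in wt cells (edgeR). Nlrc5 fell in ko cells by 0.33 on the log2 scale (SE 0.08, adjusted p = 0.000379, edgeR), while in wt cells it stood at -0.03 (95% interval -0.19 to 0.12, adjusted p = 0.701). Psmb8 fell in ko cells by 0.19 (SE 0.05, adjusted p = 0.00203, edgeR), and stood at 0.03 (95% interval -0.08 to 0.14) in wt cells. Tap2 stood at -0.24 in ko cells (adjusted p = 0.0152, edgeR), which missed the threshold when ko 48 h replicate 4 or ko 72 h replicate 1 was dropped (adjusted p = 0.0730 and 0.0505) and with offsets for exon length (adjusted p = 0.0634), and at -0.15 in wt cells (adjusted p = 0.1197). Tapbp stood at -0.06 (95% interval -0.23 to 0.11) in ko cells and at 0.19 in wt cells. The wt call (adjusted p = 0.0461, edgeR) held in 11 of the 26 alternatives; it was lost in every one that left out a wt library except wt 72 h replicate 4, and in the fit with the replicate number as a block (adjusted p = 0.0530).

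For 0 of the 10 genes the genotype effect differed between 72 h and 48 h in the edgeR fit, against 5.61% of all genes tested (2.08% with a higher and 3.53% with a lower effect in ko cells at 72 h). At an unadjusted p under 0.05 there were 3 (Psmb8, Nlrc5 and Tapbp, at -0.22, -0.30 and -0.26). The share of all genes at that unadjusted threshold was not computed, so these 3 cannot be set against it. DESeq2 called 1 at its adjusted p and limma-voom 0. So the fall of Nlrc5 and Psmb8 past the threshold in ko cells alone was not shown to differ from the change in wt cells in the edgeR fit.

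**Figure D4:**
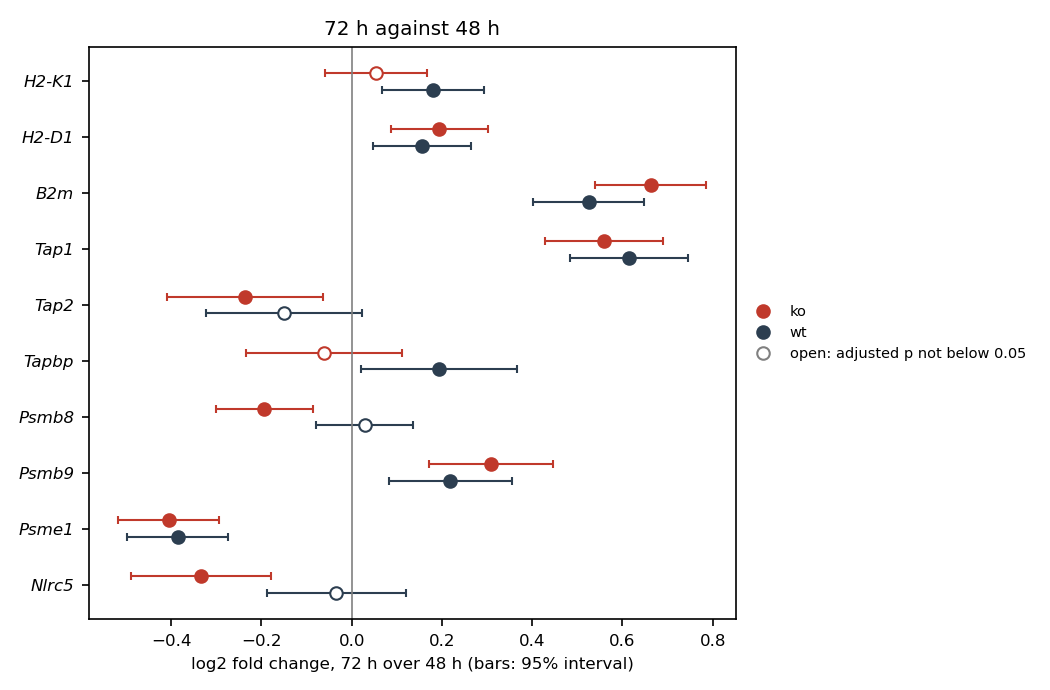
Log2 fold change of each gene, 72 h over 48 h, in ko (red) and wt (dark blue) cells, with 95% intervals from the edgeR fit; open points did not pass an adjusted p of 0.05. B2m (0.66 in ko and 0.53 in wt cells) and Tap1 (0.56 in ko and 0.62 in wt cells) lie farthest to the right in both genotypes and Psme1 (-0.41 in ko and -0.39 in wt cells) farthest to the left, and Nlrc5 and Psmb8 are filled in ko cells only.

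Genes that work beside the 10 were read from lists chosen with results of these data known, and the counts below are for 72 h, out of 16.9% higher and 19.5% lower among all genes. For the list counts at an unadjusted p under 0.05, the share of all genes was not computed. Among the regulators of class I transcription (16 tested) 2 were higher and 4 lower in ko cells, with a median log2 fold change of -0.03. Among the lower genes were Nfya, a subunit of the NF-Y factor that binds CCAAT (-0.49, SE 0.06, adjusted p = 1.47e-06, edgeR), Nfkb1, the p50 and p105 NF-kappa-B subunit (-0.47, SE 0.07, adjusted p = 1.56e-05), and Rfx5, the DNA-binding RFX subunit. Rfx5 had 10.97, 12.2, 11.02 and 11.8 CPM in ko against 16.6, 17.1, 19.5 and 15.8 CPM in wt libraries (-0.46, SE 0.09, adjusted p = 0.000225, edgeR). It separated the genotypes without overlap, as Nlrc5 did. Irf1, an interferon-induced activator of class I genes, had 58.8 to 63.4 CPM in ko and 52.6 to 70.2 CPM in wt libraries, with a log2 fold change of 0.05 (95% interval -0.10 to 0.20, edgeR adjusted p = 0.624), -0.08 with library-total scaling and -0.02 without wt 72 h replicate 4. The lower genes of the list numbered 7 with library-total scaling. At 48 h 0 of the 16 passed (4 at an unadjusted p under 0.05), with Nfya at -0.04, Nfkb1 at -0.17 and Rfx5 at -0.26. That count moved with the setting. Without ko 48 h replicate 4 there were 3 lower genes, among them Nfkb1 (-0.23, adjusted p = 0.0214, edgeR) and Rfx5 (-0.30, adjusted p = 0.0402, edgeR). Both passed also with both outlying libraries dropped (3 lower), Rfx5 passed in DESeq2 (2 lower), and without ko 72 h replicate 3 there were 2 lower.

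Of the interferon gamma signal genes (9 tested, Irf1 among them) 2 were higher and 2 lower at 72 h. Ifng, the cytokine itself, had 33.1, 34.3, 22.1 and 43.5 CPM in ko against 53.9, 57.6, 82.3 and 105.8 CPM in wt libraries, which did not overlap (-1.05, SE 0.22, adjusted p = 0.00251, edgeR). Ptpn2, a phosphatase that acts on JAK kinases, was higher (0.48, SE 0.08, adjusted p = 7.08e-05), and so was the receptor chain Ifngr1 (0.26, SE 0.07, adjusted p = 0.00374), whose call was lost with library-total scaling (adjusted p = 0.114). At 48 h 1 of the 9 passed, Ifngr1 (0.33, SE 0.07, adjusted p = 0.00373, edgeR). Ifng had 266, 188, 245 and 227 CPM in ko against 331, 325, 302 and 329.0 CPM in wt libraries at 48 h. These did not overlap either, and the log2 fold change of Ifng was -0.44 (95% interval -0.90 to 0.02, edgeR adjusted p = 0.251). It passed with no filter on low counts (adjusted p = 5.44e-08) and with only the 48 h groups fitted (adjusted p = 0.00876), and the difference of the genotype effect on Ifng between the times was -0.61 (SE 0.31, adjusted p = 0.282, edgeR). Without ko 48 h replicate 4 the list had 1 lower gene at 48 h.

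Of 14 other class I heavy chains tested 5 were higher and 2 lower at 72 h, with a median log2 fold change of 0.19. At 48 h 2 were higher, H2-Q2 and H2-Q10, and 1 lower, H2-Q6, out of 4.41% higher and 2.66% lower among all genes at that time. The higher genes fell to 1 without ko 48 h replicate 2 or wt 48 h replicate 1 or 2, where H2-Q2 missed the threshold (highest adjusted p = 0.106, edgeR), and the lower genes to 0 without ko 48 h replicate 1 or wt 48 h replicate 1 or 4. With both outlying libraries dropped 2 were lower. Those with the largest differences at 72 h were H2-Q2 (0.83, SE 0.16), H2-T24 (-0.58, SE 0.17), H2-Q10 (0.52, SE 0.08) and H2-T23 (0.29, SE 0.05), the last of which encodes Qa-1b, a ligand of NK cell receptors. H2-T23 had 259, 266, 288 and 278 CPM in ko against 248, 243, 255 and 231 CPM in wt libraries, with all ko libraries above all wt libraries. H2-Q2 and H2-T24 were low, at most 9.73 CPM in ko and 10.4 CPM in wt libraries, and the counts of all these genes are uncertain because they resemble one another. With library-total scaling 3 of the 14 were higher.

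Of 5 further activator and immunoproteasome genes 0 were higher and 2 lower at 72 h, Psme3, the nuclear PA28 gamma cap (-0.42, SE 0.06, adjusted p = 7.58e-06, edgeR), and Psme4, the PA200 cap (-0.18, SE 0.07, adjusted p = 0.0343, edgeR). Psme4 missed the threshold when ko 72 h replicate 3 (adjusted p = 0.123) or 4 (0.0941) or wt 72 h replicate 1 (0.113) or 2 (0.103) was dropped, and also with only the 72 h groups fitted (adjusted p = 0.0711) and with offsets for exon length (-0.06, adjusted p = 0.468). Psmb10, the third immunoproteasome subunit, stood at -0.15 (95% interval -0.29 to -0.01, edgeR adjusted p = 0.0831), and passed with library-total scaling, with offsets for exon length, without wt 72 h replicate 4 and with both outlying libraries dropped (adjusted p = 0.00265, 0.00514, 0.0442 and 0.0268).

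Of the 14 genes of the constitutive 20S core 3 were higher, Psmb1 (0.42, SE 0.09), Psma4 (0.24, SE 0.08) and Psmb6 (0.22, SE 0.06), and 1 lower, Psmb2 (-0.35, SE 0.07). Psmb5 stood at -0.14 (95% interval -0.27 to -0.01, edgeR adjusted p = 0.0820) and Psmb7 at 0.10 (95% interval -0.08 to 0.28, edgeR adjusted p = 0.379). Psmb7 passed with both outlying libraries dropped (adjusted p = 0.0214). The split of this list depended on the setting, with 1 higher and 4 lower under library-total scaling and under offsets for exon length, both of which included Psmb5 (adjusted p = 0.000974 and 0.000304), 6 higher without wt 72 h replicate 4, and 9 higher and 1 lower with both outlying libraries dropped. The calls of Psmb6 and Psma4 were lost under library-total scaling (adjusted p = 0.188 and 0.224) and under length offsets (adjusted p = 0.0575 and 0.0570), and that of Psma4 also without ko 72 h replicate 3 or 4 or wt 72 h replicate 1, 2 or 3 (highest adjusted p = 0.111). At 48 h 0 of the 5 and 0 of the 14 passed in edgeR (3 and 4 at an unadjusted p under 0.05). Without ko 48 h replicate 4 the 5 genes gave 1 higher and 1 lower at 48 h, the lower one Psme4 (-0.22, adjusted p = 0.0321), which passed in 10 of the 26 alternatives. The 20S core then gave 2 higher, Psmb6 among them (0.18, adjusted p = 0.0353, edgeR). With both outlying libraries dropped 4 genes of the 20S core were higher at 48 h, among them Psmb1 (0.23, adjusted p = 0.0137) and Psmb6 (0.18, adjusted p = 0.0206).

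Of 13 peptide loading and trimming genes 3 were higher and 3 lower at 72 h, with a median log2 fold change of -0.01. Higher were Sec61g and Sec61b, small subunits of the channel into the endoplasmic reticulum (0.60, SE 0.11, and 0.44, SE 0.08), and Tapbpl, which encodes the tapasin relative TAPBPR (0.32, SE 0.06, adjusted p = 9.03e-05, edgeR). Tapbpl had 116, 116, 125 and 125 CPM in ko against 111, 103, 102 and 105 CPM in wt libraries, so it stood above in every ko library, opposite to Tapbp. Uggt1, the folding sensor that works with TAPBPR, was lower (-0.35, SE 0.08, adjusted p = 0.00182, edgeR). Library-total scaling gave 6 lower genes in this list and the same number higher. Of 7 cytosolic peptidases 0 were higher and 3 lower at 72 h, Thop1 (-0.34, SE 0.07), Lap3 (-0.23, SE 0.06) and Ide (-0.22, SE 0.07). The call of Ide was lost without ko 72 h replicate 3 (adjusted p = 0.0713) and with offsets for exon length (adjusted p = 0.131). At 48 h 2 loading genes (Sec61g and Sec61b) were higher, and 1 peptidase, Tpp2, was lower (-0.24, SE 0.07, adjusted p = 0.0305). Those calls were lost without single 48 h libraries: Sec61g without ko replicate 2 (adjusted p = 0.0587), Sec61b without ko replicate 1 or 2 or wt replicate 1 or 2 (highest adjusted p = 0.0919), and Tpp2 without ko replicate 1 or 2 or wt replicate 1, 2 or 4 (highest adjusted p = 0.126). Ide passed at 48 h without ko 48 h replicate 4 (-0.23, adjusted p = 0.0191, edgeR), which gave 2 lower peptidases.

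Of 9 class II genes, which load antigen taken up from outside and are marks of B cells and other presenting cells, 2 were higher and 1 lower at 72 h. H2-Ab1 had 99.3, 109, 117 and 107 CPM in ko against 81.0, 79.7, 70.6 and 63.9 CPM in wt libraries (0.68, SE 0.09, adjusted p = 5.90e-06, edgeR), and H2-Ob stood at 0.76 (SE 0.15). H2-DMb2 was lower (-0.37, SE 0.14, adjusted p = 0.0400, edgeR), a call lost without ko 72 h replicate 1 or 3 or wt 72 h replicate 1, 2 or 3 (highest adjusted p = 0.122). With both outlying libraries dropped 2 were lower. At 48 h 1 of the 9 passed, H2-Ab1 (0.37, SE 0.11, adjusted p = 0.0317, edgeR), a call lost without ko 48 h replicate 1, 2 or 3 or wt 48 h replicate 1, 2 or 4 (highest adjusted p = 0.123). The 8 B cell markers summed to 7.29 to 8.36 CPM in ko and 6.17 to 10.1 CPM in wt libraries at 72 h, and the macrophage markers differed as given above. The part of either in the class II values was not tested.

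**Figure D5:**
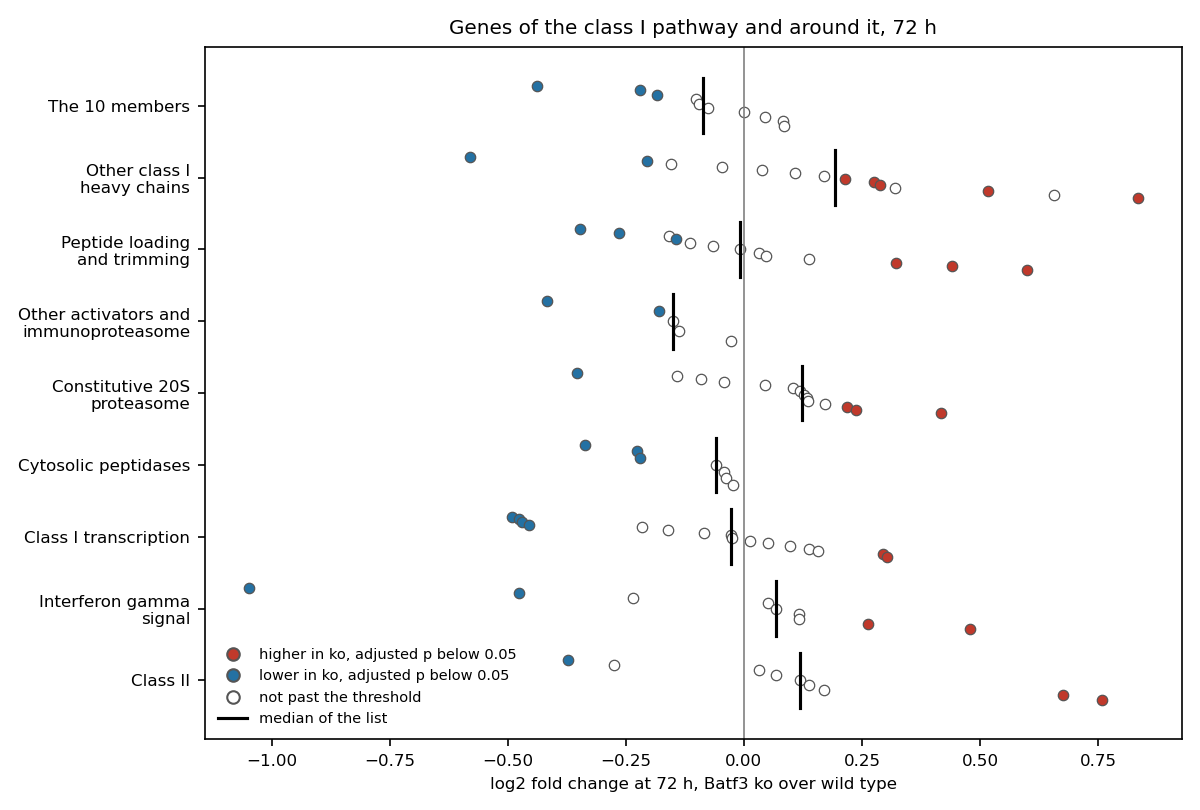
Log2 fold change at 72 h, ko over wt, for every tested gene of the 10 members and of 8 lists around them (points; red higher, blue lower, open not past an adjusted p of 0.05), with the list median as a black line. Class I transcription has 4 blue points left of -0.4, while the other class I heavy chains have 5 red points and a median of 0.19.

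The genes whose expression over the 16 libraries was most like the mean standardised profile of the 10 genes were Stk10 (Pearson r = 0.915), Grk2 (0.901), Ccdc61 (0.891), Mvb12b (0.884) and Klf13 (0.877), among 8535 genes compared. The libraries share groups and depth, so these correlations only describe. The 10 genes themselves varied in how well they followed their mean profile, with r = 0.789 for H2-K1, 0.782 for Tapbp, 0.648 for Tap1, 0.134 for Tap2 and -0.374 for Psme1.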

How the data were processed

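Poly-A RNA was sequenced from 16 libraries of mouse CD8 T cells, with stranded library kits and an input of 100 ng, per the labels' protocols. The tools and the build are bcl2fastq 2.2.0, STAR 2.7, featureCounts and GRCm38, per the submitters' processing notes. The authors deposited raw counts of reads per gene as whole numbers, and these entered the tests unchanged. Which annotation release was counted, whether strand was used and how reads with several matches were treated is not given in the sources used here. GENCODE M21 (GRCm38) gave symbols, positions and exon lengths for 55154 of 55335 identifiers, and Nrdc was matched to Nrd1 through RefSeq synonyms.

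CPM are counts per 1000000 of the library total, and RPKM are CPM per 1000 bases of joined exons. Groups came from the labels. All 16 libraries were fitted in R 4.3.3 by edgeR 4.0.16, using TMM scaling, a robust two-sided quasi-likelihood F test and filterByExpr at a minimum count of 10, with p-values adjusted by the Benjamini-Hochberg method over 15197 genes and a threshold of 0.05. The standard error is the log2 fold change divided by the square root of F, and intervals are at 95%. At these depths 3 counts correspond to 0.0765 to 0.102 CPM, and precision was limited by the spread between libraries more than by counting. Within each group all pairs of libraries differed by more than sampling noise. Ratios were tested with scipy 1.17.1. The fit was tested on simulated data. Alternatives were library-total and median-ratio scaling, no filter and a minimum count of 30, DESeq2 1.42.0, limma-voom (limma 3.58.1), a block for the replicate number, only the groups compared, offsets for exon length, and leaving out each library or both that stand apart.

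The members and lists were chosen with earlier results of these data known. The 10 members are named whatever their result. Some genes of the lists are counted but not reported by name here. From each list were named up to 4 genes past the threshold at either time with the largest log2 fold change at 72 h, and Irf1, Ifng, Psmb5, Psmb6, Psmb7 and Psmb10. H2-Q6 and Cd68 were named after their values were seen. Likeness to the members was measured over genes with a mean log2 CPM of at least 3. Promoters came from the RefSeq table (GRCm38.p6).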

Additional observations from a re-analysis of the deposited data

How the results depend on the processing

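Of 1290 values of the 10 genes under alternatives, 1208 kept direction and side of the threshold. The calls of Nlrc5 and Psmb8 at 72 h held in all. With library-total scaling 5 of the 10 genes were lower at 72 h, 2 had a lower interaction, and all genes gave 1463 higher and 4779 lower at 72 h and 183 higher and 1230 lower for the interaction. DESeq2 gave 796 lower genes at 48 h, and for the interaction 566 higher genes and 1 of the 10 lower. With both outlying libraries dropped 1 of the 10 was lower at 48 h and 1 for the interaction, with 1379 genes higher and 1171 lower at 48 h. With no filter 3 of the 10 were higher and 2 lower with time in wt cells. Leaving out 1 library gave 302 to 1059 higher and 171 to 896 lower genes and 0 to 1 lower members at 48 h, and 158 to 407 higher and 233 to 649 lower genes and 0 to 1 lower members for the interaction. The causes were not tested.

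Values near 0 changed sign, none of them past the threshold. At 48 h with library-total scaling H2-K1 stood at -0.0028 and Tap2 at -0.021. With offsets for exon length at 48 h H2-K1 stood at -0.0038, H2-D1 at -0.0022, Tap2 at -0.0057, Nfya at 0.014 and Psmb5 at -0.00013. Tap2 at 48 h stood at -0.0055 with median-ratio scaling and -0.0054 in DESeq2. With both outlying libraries dropped Tapbp (-0.036), Psmb9 (0.0060) and Tap2 (-0.067) changed sign at 48 h, Tap1 (-0.032) and Irf1 (-0.018) at 72 h, and with time Nlrc5 in wt (0.011) and Tapbp in ko cells (0.0076). At 72 h with library-total scaling B2m stood at -0.043, Psmb9 at -0.082, Tap1 at -0.13, H2-D1 at -0.045, Irf1 at -0.077 and Psmb7 at -0.021, H2-K1 with time in ko cells at -0.013, and the interactions of Psmb9 and H2-D1 at -7.3e-05 and -0.054. With offsets for exon length B2m (-0.094) and Tpp2 (0.089) at 72 h and Tapbp with time in ko cells (0.011) changed sign. Tap1 at 72 h stood at -0.012 with no filter, -0.00036 in limma-voom and -0.0010 with the replicate block, and Psmb8 with time in wt cells at -0.0082 with no filter.

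Leaving out 1 library took values across 0 at 48 h for Tapbp (-0.036 to 0.082), Psmb9 (-0.098 to 0.0059), Tap2 (-0.067 to 0.054), H2-DMb2 (-0.18 to 0.042), Irf1 (-0.060 to 0.038), Psmb7 (-0.017 to 0.13) and the log2 ratio of H2-K1 to H2-D1 (-0.025 to 8.3e-05), and at 72 h for Tap1 (-0.041 to 0.026) and Irf1 (-0.018 to 0.099). It did so with time for Nlrc5 in wt (-0.069 to 0.012) and Tapbp in ko cells (-0.15 to 0.0073), and for the interaction of Psme1 (-0.050 to 0.024).

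No pairing of the libraries by replicate number was seen. Same-numbered libraries of 2 groups correlated at -0.599 to 0.294 in their deviations from the group mean, and at most 2 of 4 correlated best with their own number. What the numbers mark is not given in the sources used here, and these correlations cannot show whether same-numbered libraries share a mouse. With the replicate number as a block the call of Tapbp with time in wt cells was lost (adjusted p = 0.0530, edgeR). That took Tapbp out of the count of genes higher with time in wt cells, and the other calls of the 10 genes were the same.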
